A study of Homo sapiens with 4 samples.

Results

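The interaction of BMP4 and the GSK3 inhibitor CHIR99021 was examined gene by gene on 4 Illumina HumanHT-12 V4 arrays, 1 for each condition, in the established human embryonic stem cell (hESC) line HuES6. Cells received BMP4 at 20 ng/ml together with CHIR99021 at 5 µM, BMP4 alone at 20 ng/ml, CHIR99021 alone at 5 µM, or neither (untreated), each for 4 h. All 4 groups, the untreated one included, shared Matrigel-coated wells and a Serum Replacement-based hESC medium that held FGF2 (20 ng/ml) and Activin A (5 ng/ml). The comparison asks whether the combined treatment gave the level that adding both single differences would give. The departure from additivity is log2 of both treatments minus BMP4 minus CHIR99021 plus untreated, and is positive where the combined level lay above that expectation. Only bright probes entered, those with a detection p-value below 0.01 on every one of the 4 arrays. These were 14440 of 47321 probes, and they stood for 9306 of 20046 genes named on the array, each read at its brightest probe. With 1 array per condition there is no test and no replicate check on any value, and all levels are normalized log2 intensities.

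BMP4 binds receptors at the cell surface that phosphorylate SMAD1 and SMAD5, which enter the nucleus with SMAD4 and act at genes such as the ID inhibitors of differentiation and the MSX homeobox genes. CHIR99021 blocks GSK3, the kinase that marks beta-catenin for destruction, and beta-catenin then acts with TCF/LEF factors at genes such as AXIN2. In early embryos both pathways act together in the induction of mesoderm.

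The arrays were alike in depth of detection. Each array detected between 15980 and 16762 probes, and any pair of arrays had r between 0.984 and 0.991 over the bright probes. Markers of undifferentiated cells were bright on every array and near additive for POU5F1, at 11.42 with both treatments, 11.39 with BMP4, 11.55 with CHIR99021 and 11.51 in untreated cells. NANOG departed by 0.21, SOX2 by 0.36, LIN28A by -0.04 and DNMT3B by -0.49. SOX2 was lower on the arrays with CHIR99021, at 8.55 with both treatments, 9.10 with BMP4, 8.25 with CHIR99021 and 9.16 in untreated cells. Among markers of other cell types, 5 of 17 amnion, trophoblast or surface ectoderm genes on the array, 4 of 14 neuroectoderm genes and 7 of 12 fibroblast or smooth muscle genes were bright. In the same order of lists, 7, 9 and 4 genes were not detected on any array, KRT7, PAX6, SOX1 and LUM among them. Bright members included KRT8, KRT18, OTX2, NES, COL1A1 and ACTA2. At the detection threshold, the 95 probes just inside it (highest p-value 0.00909) had a median log2 intensity of 5.22, and the 65 probes just outside it (0.0104) one of 5.20.

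Most genes lay close to additivity. The departure was smaller than 0.6 in size for 92.1% of the 9306 genes, its median was 0.01, and its 5th and 95th percentiles were -0.55 and 0.57. As a yardstick, the spread of departures (the median absolute deviation scaled to a standard deviation) was taken within 20 bins of mean intensity. It ran from 0.29 to 0.40 with a median of 0.33, and since it is made from the same arrays it holds true departures as well as noise. A departure of at least 1, a 2-fold excess or shortfall, was seen above additivity for 26 genes (0.279% of those measured) and below it for 25 genes (0.269%). At 0.6 the counts were 394 genes above (4.23%) and 338 below (3.63%). Of the 51 genes past 1, 45 exceeded 3 times their spread, and their multiples ran from 2.69 to 5.22. Dim genes held more of them. In 4 equal classes of rising intensity, 7, 9, 5 and 5 genes lay above and 14, 5, 6 and 0 below. Beyond 4 times the spread there were 8 genes: HES1, MSX1, MAP2K2 and FTO above additivity, and BLOC1S1, VPS13A, CREB3 and VASP below it. All but VPS13A and VASP had no further probe on the array, so no other probe could check them. The further probe of VASP was not bright and gave -0.10.

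**Figure D1:**
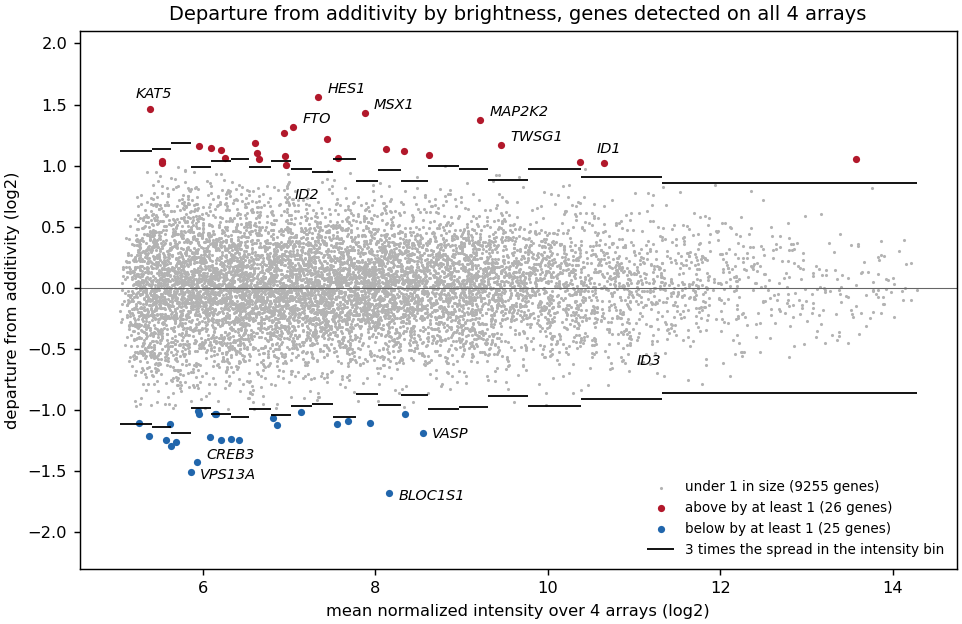
Departure from additivity (log2, vertical axis) against mean normalized intensity over the 4 arrays (log2, horizontal axis) for 9306 genes, each at its brightest probe. Red points are the 26 genes at least 1 above and blue points the 25 genes at least 1 below, black steps mark 3 times the spread in each of 20 intensity bins, and no blue point lies at intensities above 8.97.

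Among genes listed as BMP-SMAD targets, MSX1 and ID1 exceeded additivity by at least 1, ID2 by at least 0.6, and ID3 fell short by 0.54. MSX1 and ID2 differed more from untreated cells with CHIR99021 alone (2.64 and 1.89) than with BMP4 alone (0.79 and 1.59). The study counts MSX1 among WNT targets. MSX1, a homeobox gene of mesoderm and neural crest on chromosome 4 (4859665 to 4863936, GRCh38.p14), measured 10.67 with both treatments, 6.59 with BMP4, 8.45 with CHIR99021 and 5.81 in untreated cells. Additivity predicts 9.24 for the combined array, so the departure was 1.43, a 2.70-fold excess and 4.93 times the spread. MSX1 had no further probe on the array. The combined array was the highest of the 4 by a wide margin, and each treatment had the larger difference when the other was present. For BMP4 it was 2.22 in the presence of CHIR99021, against 0.79 alone, and for CHIR99021 it was 4.08 in the presence of BMP4, against 2.64 alone. By definition both gaps equal the departure, so they restate it.

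ID1, an inhibitor of basic helix-loop-helix factors on chromosome 20 (31605289 to 31606510), reached its departure in another way. It measured 12.38 with both treatments, 12.36 with BMP4, 8.43 with CHIR99021 and 9.43 in untreated cells. The combined array and the BMP4 array were level, and the departure of 1.02 (3.37 times the spread) was nearly the amount, 1.00, by which CHIR99021 alone lay below untreated cells. Its second probe, detected on the BMP4 and the combined array alone, gave 0.28. If linear intensities are added in place of log2 values, ID1 departed by 0.12 and MSX1 by 2.11. Without background correction ID1 departed by 0.89.

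ID2 was the 1 bright gene at which each single treatment read at least 1 above untreated cells. It measured 9.23 with both treatments, 6.64 with BMP4, 6.94 with CHIR99021 and 5.05 in untreated cells. The combined level exceeded the additive one by 0.70 (2.02 times the spread), while its second bright probe, at 8.47, 6.49, 6.84 and 5.00 on the same arrays in that order, gave 0.14. With an offset of 1 in place of 16 in the background correction the departure at the first probe was 0.21. ID3 measured 12.16 with both treatments, 11.75 with BMP4, 10.38 with CHIR99021 and 9.43 in untreated cells. Its departure of -0.54 was 1.80 times the spread in size.

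The other bright genes of this list were closer to additivity. BAMBI, a decoy receptor induced by BMP, departed by 0.24, the inhibitory SMAD7 by 0.15 and the BMP antagonist GREM1 by -0.14. The median over the 7 bright members of 22 listed was 0.24, against 0.01 over all bright genes. The other 15, HAND1, GATA3, TFAP2A and SMAD6 among them, were not bright on all 4 arrays and have no departure here. Pathway components upstream of these targets were mixed. TWSG1, a secreted protein that binds BMPs and modulates their signaling, measured 9.83 with both treatments, 9.07 with BMP4, 9.26 with CHIR99021 and 9.67 in untreated cells. Its departure of 1.17 came from both single treatments reading low, and a second bright probe gave -0.20, so that the mean over both was 0.49. The ligand gene BMP7 measured 7.24 with both treatments, 6.33 with BMP4, 6.36 with CHIR99021 and 6.23 in untreated cells, so that the combined array alone stood apart (departure 0.79). The other 7 bright members of that list, SMAD4, SMAD5, ACVR1 and BMPR2 among them, lay between -0.11 and 0.26.

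**Figure D2:**
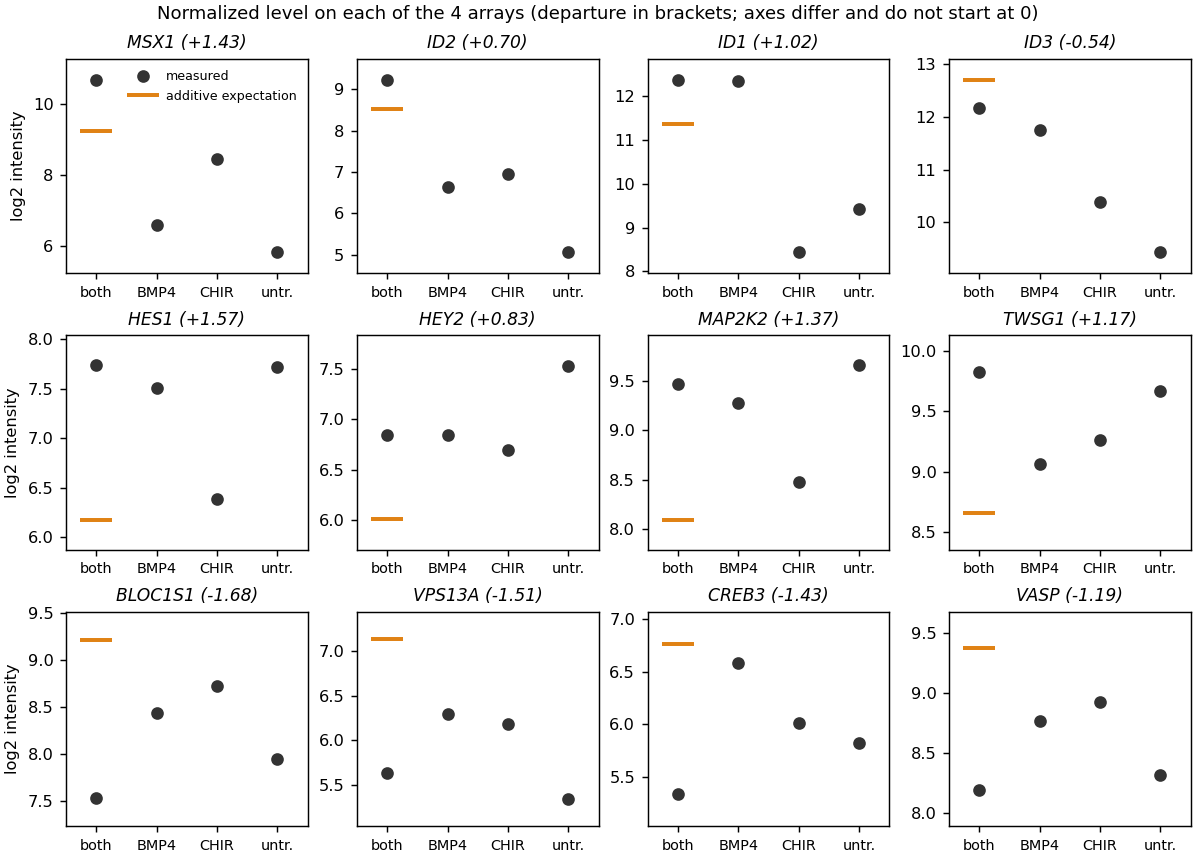
Normalized level (log2 intensity, vertical axes, which differ between panels) of 12 genes on the 4 arrays, from left to right both treatments, BMP4, CHIR99021 and untreated. Points are single arrays, the orange bar is the level that additivity predicts for the combined array, and the departure stands in brackets: MSX1, ID2 and ID1 exceed the bar, and BLOC1S1, VPS13A, CREB3 and VASP fall short of it with single treatments above untreated cells.

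Among Notch pathway genes HES1 departed by more than 1, and HEY2 and DLL3 by more than 0.6. Notch receptors are cleaved on contact with Delta or Jagged ligands of a neighbouring cell, and the released domain joins RBPJ to switch on HES and HEY repressor genes. HES1, on chromosome 3 (194136148 to 194138732), measured 7.74 with both treatments, 7.51 with BMP4, 6.39 with CHIR99021 and 7.72 in untreated cells. The CHIR99021 array alone was low and the other 3 were close together, giving 1.57, or 4.94 times the spread, the highest departure of any bright gene. HES1 had no further probe on the array.

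HEY2, a related repressor gene, measured 6.84 with both treatments, 6.84 with BMP4, 6.69 with CHIR99021 and 7.53 in untreated cells. Here all 3 treated arrays lay below untreated cells by similar amounts, which gave a departure of 0.83 with no higher level under the combination. DLL3, a divergent Delta ligand that inhibits the pathway within the cell, measured 6.66 with both treatments, 6.70 with BMP4, 6.37 with CHIR99021 and 7.10 in untreated cells (departure 0.68). NOTCH3 departed by 0.55, NOTCH1 by 0.52, HES4 by 0.49, the glycosyltransferase genes RFNG and LFNG by 0.46 and 0.44, and HES6 by 0.43. The ligand gene JAG1 lay at -0.46, NOTCH2 at -0.19 and RBPJ at -0.06. The 11 bright members other than HES1, HEY2 and DLL3 lay between the 5th and 95th percentiles of all bright genes. Of 14 bright members of 20 listed, 11 were positive, against 51.4% of all bright genes, and the median was 0.45. The median CHIR99021 difference of these 14 genes was 0.09 in the presence of BMP4, against -0.35 alone. All of these comparisons rest on the same single CHIR99021 array, and its part in the shared direction was not tested.

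The stretch of 250 bases before the annotated start of MSX1, HES1 and ID1 is shown. These are the genes listed as BMP-SMAD targets and the Notch pathway gene that departed by more than 1. The sequences are from RefSeq, GRCh38.p14, on the plus strand: chr4:4859415-4859664 for MSX1, chr3:194135898-194136147 for HES1 and chr20:31605039-31605288 for ID1. Capitals mark matches, on either strand, to a SMAD1/5 motif (GGCGCC), a short SMAD motif (GTCTG), a TCF/LEF motif (CTTTG followed by AT, by TT or by AA) and an RBPJ motif (GTGGGAA).
MSX1: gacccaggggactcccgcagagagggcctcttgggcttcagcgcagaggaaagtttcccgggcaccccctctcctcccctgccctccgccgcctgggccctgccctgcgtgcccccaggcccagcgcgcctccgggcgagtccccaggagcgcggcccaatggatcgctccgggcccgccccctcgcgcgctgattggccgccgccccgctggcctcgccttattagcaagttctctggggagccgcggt
HES1: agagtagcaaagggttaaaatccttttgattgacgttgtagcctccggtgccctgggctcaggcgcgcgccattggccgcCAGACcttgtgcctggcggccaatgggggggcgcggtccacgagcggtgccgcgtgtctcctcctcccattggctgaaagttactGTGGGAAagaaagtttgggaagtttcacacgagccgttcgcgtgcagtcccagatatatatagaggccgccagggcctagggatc
ID1: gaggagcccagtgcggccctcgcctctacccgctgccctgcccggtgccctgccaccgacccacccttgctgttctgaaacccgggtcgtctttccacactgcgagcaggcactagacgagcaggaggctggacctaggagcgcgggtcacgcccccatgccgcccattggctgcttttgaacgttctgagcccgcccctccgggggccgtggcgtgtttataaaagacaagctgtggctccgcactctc
HES1 held the short SMAD motif on its minus strand at bases -170 to -166 and the RBPJ motif at -85 to -79, which do not overlap, and MSX1 and ID1 held none of these letters. Over 27305 promoters of this length, 16.1% held the SMAD1/5 motif, 37.8% the short SMAD motif, 10.1% a TCF/LEF motif and 5.46% the RBPJ motif. A promoter was found for 39 of the 51 genes past 1. The SMAD1/5 motif was in 5 of 21 promoters of genes above additivity and 4 of 18 below, against 26.6% of 7687 bright genes. A TCF/LEF motif was in 0 of 21 and 1 of 18, against 5.79%. A match is a description of letters in this window and not a binding site.

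The bright genes listed as WNT-beta-catenin targets were near additive. AXIN2, a scaffold of the beta-catenin destruction complex and a feedback target, measured 10.26 with both treatments, 7.73 with BMP4, 10.36 with CHIR99021 and 7.96 in untreated cells. Its CHIR99021 difference was 2.53 in the presence of BMP4, against 2.40 alone, a departure of 0.13. ZNRF3, a ubiquitin ligase that removes WNT receptors, lay at -0.45, CCND1 (cyclin D1) at 0.50 and NKD2 at 0.53. None of the 8 bright members of 21 listed reached 0.6, and their median was 0.05. The median CHIR99021 difference alone of these 8 genes was 0.20, against 2.40 for AXIN2, so most were weak responders. MSX1 and ID2, both higher with CHIR99021 alone, were counted on the BMP-SMAD list. SP5, LEF1, NKD1 and 9 others on the array were not bright on all 4 arrays. Among 18 bright WNT ligands, receptors and destruction complex genes, the receptor gene FZD3 departed most, by 0.74, and the median was 0.02. KREMEN2, a receptor for DKK inhibitors that was on no list, was highest in untreated cells and measured 7.66 with both treatments, 7.12 with BMP4 and 7.48 with CHIR99021, a departure of 1.06.

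Most of the 12 highest departures were at genes outside these lists. MAP2K2, which encodes the ERK kinase MEK2, measured 9.47 with both treatments, 9.27 with BMP4, 8.48 with CHIR99021 and 9.66 in untreated cells. As at HES1, the CHIR99021 array was the low one, and the departure was 1.37 (4.23 times the spread). FTO, an RNA demethylase gene, measured 7.28 with both treatments, 6.68 with BMP4, 6.77 with CHIR99021 and 7.49 in untreated cells, a departure of 1.32 with both single treatments low (0.87 without background correction). KAT5, which encodes the acetyltransferase TIP60, departed by 1.46 with untreated cells highest, at 5.44 with both treatments, 4.97 with BMP4, 5.07 with CHIR99021 and 6.06 in untreated cells. Its second bright probe gave -0.11, its mean intensity was low, 5.39, and without background correction it departed by 0.57. WTIP, a LIM domain gene, departed by 1.27 and its second bright probe by 0.00. PICK1, a PDZ domain gene, measured 8.07 with both treatments, 7.29 with BMP4, 6.98 with CHIR99021 and 7.42 in untreated cells. It departed by 1.22, and by 0.49 at its second bright probe. There untreated cells were highest, at 6.04, against 5.69 with both treatments, 5.93 with BMP4 and 5.31 with CHIR99021. ZNF407 (1.19), the phosphatase subunit gene PPP2CB (1.16), the kinesin gene KIF26A (1.14) and the mRNA export gene ALYREF (1.13) complete the 12 highest. None of these 4 had a further bright probe. Further probes that were not bright gave -0.43 and 0.08 at ZNF407 and -0.39 at ALYREF. The remaining 13 genes past 1, besides ID1, lay between 1.01 and 1.12, and the brightest of them was RPL8, a ribosomal protein gene, with 1.06 at a mean intensity of 13.58 and 0.37 at its second bright probe.

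Among genes below additivity, the single treatments read above both the combination and untreated cells in 24 of 25, and the sizes were led by BLOC1S1. BLOC1S1, a subunit shared by the BLOC-1 and BORC complexes of endosome and lysosome traffic, lies on chromosome 12 (55716046 to 55719703). It measured 7.54 with both treatments, 8.44 with BMP4, 8.72 with CHIR99021 and 7.95 in untreated cells. The combined array was the lowest of the 4, and the departure of -1.68 was the lowest of any bright gene at its brightest probe and 5.22 times the spread in size. It had no further probe. Of 10 bright genes of the BLOC-1, BORC and lysosome positioning list, BLOC1S2 lay at -0.96, BORCS7 at -0.74 and SNAPIN at -0.69. BLOC1S4, another subunit of the same complex, departed the other way by 1.00, falling just short of the threshold, at 9.09 with both treatments, 8.75 with BMP4, 8.38 with CHIR99021 and 9.04 in untreated cells. The list's median was -0.07, with 7 of 10 negative, while 51.4% of all bright genes were positive. Of those 7, the lysosome membrane genes LAMP1 (-0.01) and LAMP2 (-0.04) were additive.

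VPS13A, a gene for a lipid transfer protein, measured 5.63 with both treatments, 6.30 with BMP4, 6.18 with CHIR99021 and 5.34 in untreated cells. Its departure was -1.51, and further bright probes gave -0.27 and -0.37. Without background correction it was -0.68. CREB3, which encodes a transcription factor held at the endoplasmic reticulum membrane, measured 5.34 with both treatments, 6.58 with BMP4, 6.01 with CHIR99021 and 5.82 in untreated cells. The combined array lay 1.24 under the BMP4 array, and the departure was -1.43, or -0.67 without background correction. VASP, a promoter of actin filament growth, measured 8.19 with both treatments, 8.77 with BMP4, 8.93 with CHIR99021 and 8.32 in untreated cells. Its departure of -1.19 came at a brighter level than the other 11 of the 12 lowest, whose mean intensities were at most 8.16. Those were, besides the ones given, HNRNPA3P1 (-1.29), the long noncoding RNA KCNQ1OT1 (-1.27), the splicing kinase gene SRPK2 (-1.24), NOC2LP2 (-1.24, and -0.11 at its second bright probe), the urea cycle gene ASL (-1.24), ANXA2P3 (-1.23), RGS3 (-1.22) and AIF1 (-1.21). HNRNPA3P1, NOC2LP2 and ANXA2P3 are pseudogenes whose probes may also capture RNA of their parent genes, so their identity is uncertain. Further probes that were not bright gave 0.34 and 0.82 at SRPK2, and 0.05, -0.51, 0.10 and 0.24 at RGS3. Such probes gave -0.21 and -0.02 at ASL and -0.28 at AIF1. The other 13 genes below additivity lay between -1.13 and -1.01.

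The combined level was near that of untreated cells about as often for genes past 1 (92.2%) as for all bright genes (92.0%). Near here means within 0.6, which held for 22 of 26 genes above additivity and for 25 of 25 below. The standard deviation of the difference between these arrays was 0.85 for genes past 1, against 0.36 for all bright genes. Among genes past 1, a combined level at least 1 away from untreated cells was seen for MSX1 (4.86 higher) and ID1 (2.95 higher) alone. In 21 of 26 genes above additivity the combined and the untreated array were both above the single-treatment arrays, and in the 24 genes below additivity both were under them. Such a crossed order was present in 23.1% of all bright genes and 73.1% of those past 0.6. The choice of genes by departure favours this order, since both single treatments enter the departure with a minus sign. By the array that stood apart by at least 0.6 on the departing side, the combined array was highest for MSX1 and PICK1. CHIR99021 was lowest for 7 genes (HES1, ID1, MAP2K2, PPP2CB, ALYREF, PRPF6 and EEF1A2) and highest for AIF1, ARMCX6 and CRYBB2. BMP4 was lowest for MEPCE and untreated cells highest for KAT5. The remaining 15 genes above and 22 below had no single array apart. These orders are those of the brightest probe, and at the second bright probe of PICK1 untreated cells were highest.

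**Figure D3:**
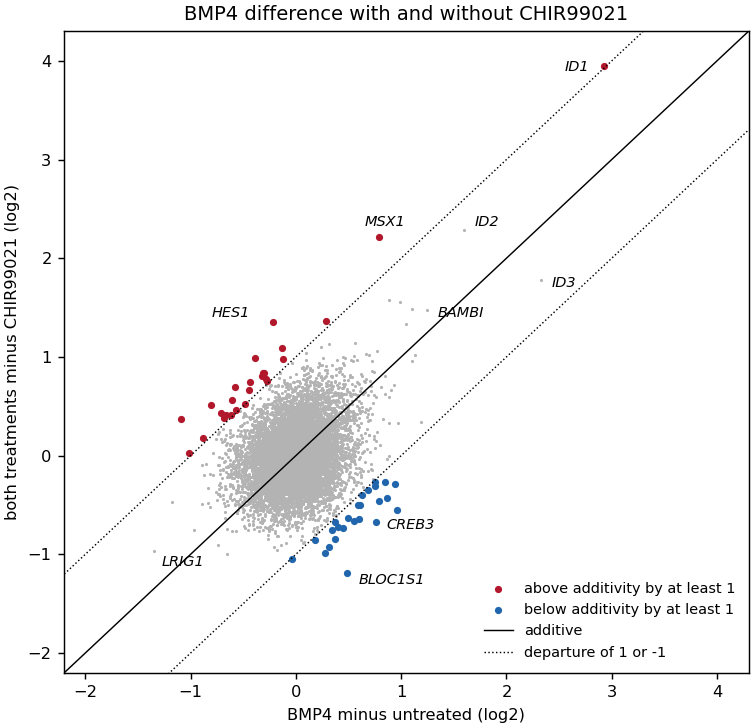
BMP4 difference in the presence of CHIR99021 (both treatments minus CHIR99021, log2, vertical axis) against the BMP4 difference alone (BMP4 minus untreated, log2, horizontal axis) for 9306 genes. On the solid line both are equal, dotted lines mark a departure of 1 in size, red and blue points lie beyond them, and ID1 (3.95 and 2.93) and MSX1 (2.22 and 0.79) are the red points far from the cloud.

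Genes with a large mean difference for a treatment over both backgrounds varied in their departures, and are given beside the 92.1% of all bright genes that departed by less than 0.6. The mean of the 2 differences for a treatment weighs the same 4 arrays with other signs than the departure. These genes were chosen by that size, after their values were seen. It was at least 1 for 11 genes higher with BMP4: MSX1, ID1, VENTX, ID2, FGFR3, EMILIN2, PRRX2, BAMBI, CDH6, NPFFR2 and ID3. Of these, 7 departed by less than 0.6, and MSX1 and ID1 by more than 1. Their median departure was 0.39, with 8 of 11 positive, against 51.4% of all bright genes. The median BMP4 difference was 1.56 in the presence of CHIR99021, against 1.10 alone. VENTX, a homeobox gene, measured 7.79 with both treatments, 6.94 with BMP4, 6.21 with CHIR99021 and 6.06 in untreated cells (departure 0.70). The single gene lower with BMP4 by that size was LRIG1, a negative regulator of receptor tyrosine kinases (departure 0.38).

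For CHIR99021, 11 genes were higher by that size. Of these, 8 departed by less than 0.6, and MSX1 by more than 1. Their median departure was 0.13, with 6 of 11 positive, against 51.4% of all bright genes. PLEKHF1, an endosomal protein gene, measured 8.78 with both treatments, 7.26 with BMP4, 7.64 with CHIR99021 and 6.94 in untreated cells. Its departure of 0.82 followed that of MSX1. NODAL (0.29), the Activin antagonist gene FST (-0.11), the WNT modulator DACT1 (-0.16), GAD1 (-0.11) and HAS3 (-0.17) were close to additive. Of the 22 genes lower with CHIR99021, 16 were positive, against 51.4% of all bright genes, and the median was 0.07. By size, 21 of the 22 departed by less than 0.6, from -0.40 at FZD4 upward. The exception was SLC46A1, a folate transporter gene, with 0.83. ERRFI1 (0.03), LEFTY1 (0.21), IL6 (0.08), CCN1 (0.33) and CCN2 (0.29) were among them.

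Further probes of the same gene seldom repeated a large departure. Of the 51 genes past 1, 13 had further bright probes, 17 in all. Of these, 9 had the sign of the main probe and none reached 0.6. Further probes are by choice dimmer than the main one, and the offset in the background correction shrinks differences between dim probes. How far this lowered the agreement was not tested. Across 2155 genes with further bright probes, 1496 of 2554 probes (58.6%) had the same sign, and the departures at the main and the further probe correlated with r = 0.23 across probes. Probes of one gene read the same 4 RNA samples and are no independent replicates of the conditions. The same was done for single differences. For CHIR99021 against untreated the correlation was 0.47, for both treatments against untreated 0.35 and for BMP4 against untreated 0.12. Where the main probe differed by at least 1, 12 of 15 further probes had its sign for CHIR99021, 16 of 21 for both treatments and 2 of 3 for BMP4.

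For genes past 0.6, 121 of 184 further bright probes (65.8%) had the same sign, and 23 of the 184 (12.5%) also reached 0.6, against 8.65% of all 2554 further bright probes. At 18 genes every further bright probe did so, 13 above and 5 below additivity, each read by 2 bright probes. MIB2, a ubiquitin ligase gene of Notch ligands, departed by 0.94 and 0.91. It measured 7.98 with both treatments, 7.75 with BMP4, 7.19 with CHIR99021 and 7.90 in untreated cells at the first probe, and 7.49, 7.28, 6.85 and 7.56 on the same arrays at the second. At both probes the CHIR99021 array was the lowest. ANKRD9 departed by 0.97 and 0.63, the glycosyltransferase gene MGAT4B by 0.79 and 0.99, ZNF777 by 0.73 and 0.95, and PTGES2, a prostaglandin synthase gene, by 0.70 and 1.05. MAEA, FAM20C, CDK10, OR7E156P, EXTL2, RCC1L, PKMYT1 and RAB23 are the others above. Below additivity were ENAH (-0.80 and -0.88), an actin regulator of the same family as VASP, and the small GTPase gene CDC42 (-0.69 and -1.12), with HNMT, MRPS18B and PCBD1. CHIR99021 was the lowest array at both probes of 11 of the 13 genes above, and the highest at both probes of 4 of the 5 below. The choice of these genes favours such orders, since the CHIR99021 level enters the departure with a minus sign. Among all 520 genes with 2 bright probes that were both positive it was lowest at both for 31.3%, and among 532 with both negative it was highest at both for 40.8%. These shares take departures of any size and are not matched to the limit of 0.6, so they are no like-for-like base. The combined array was the highest at both probes for EXTL2 and FAM20C.

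**Figure D4:**
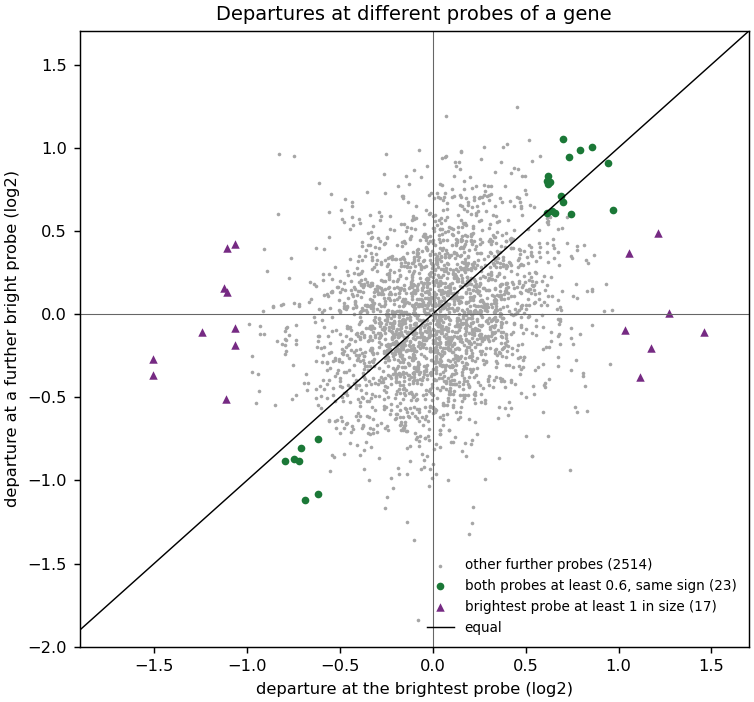
Departure at a further bright probe (log2, vertical axis) against the departure at the brightest probe of the same gene (log2, horizontal axis) for 2554 further probes of 2155 genes. Purple triangles are the 17 further probes of genes past 1 at the brightest probe, all of them under 0.6 in size, and green points are the 23 further probes that share sign and a size of at least 0.6 with the brightest probe.

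Probes other than the brightest held large departures of their own. The lowest among all further bright probes was at HSPE1, a mitochondrial chaperonin gene, with -1.84, at 8.80 with both treatments, 9.81 with BMP4, 9.95 with CHIR99021 and 9.13 in untreated cells. Its brightest probe gave -0.08. The highest was at HSPBP1, with 1.24, against 0.45 at its brightest probe. Both were picked after their values were seen. Another 2580 bright probes carry no gene name here, and 13 of them departed by at least 1 above and 12 below, with extremes of 2.32 and -1.67.

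By gene list, Notch pathway genes had the highest median departure (0.45) and neuroectoderm genes the lowest (-0.18, over 4 bright genes) of the 21 lists. Sterol synthesis genes followed the BMP-SMAD targets with a median of 0.22 and none past 0.6, and 9 of 11 were positive, against 51.4% of all bright genes. Members past 1 were HES1, MSX1, ID1 and TWSG1 above and BLOC1S1 below. Past 0.6 there were, besides the genes given, SOX3 (0.70), the keratin gene KRT8 (-0.84) and the ribosomal protein gene RPL7 (-0.86). PPP1R15A (0.76) and PHGDH (0.60), of the amino acid and unfolded protein response list, were past it too. Pluripotency genes had a median of 0.14 over 15 bright genes with none past 0.6, cell cycle genes 0.10 over 19, and reference and ribosome genes -0.03 over 17.

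**Figure D5:**
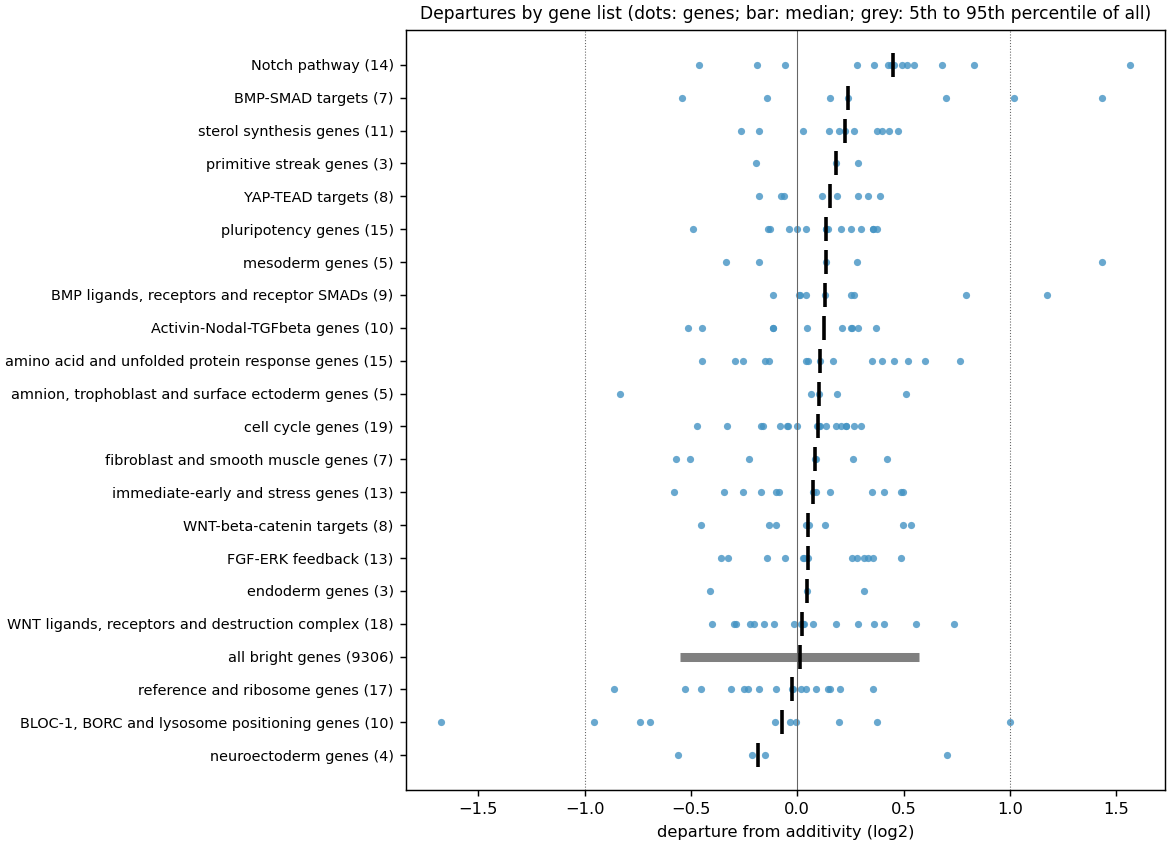
Departure from additivity (log2, horizontal axis) of the bright genes of 21 lists, one row per list with the number of bright genes in brackets, sorted by median. Blue dots are genes, black bars are medians, the grey bar spans the 5th to 95th percentile of all 9306 bright genes (-0.55 to 0.57), and Notch pathway genes stand at the top with a median of 0.45.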

How the data were processed

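RNA of the 4 cultures was labelled with biotin and hybridised to 1 array each, and groups were taken from the treatment in the labels. The members, gene lists and size thresholds were chosen with earlier results of these data known. Per the file headers, the authors' first table held unnormalized linear intensity values of 47321 probes, each with a deposited detection p-value that moves in steps of 1 in 770. Their second table held linear intensities that, by the study's methods, were background-subtracted and cubic spline normalized in GenomeStudio (version not stated in the labels).

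Raw intensities were background-corrected in limma 3.58.1 (R 4.3.3) with the normexp model estimated from the detection p-values, with an offset of 16, then quantile-normalized and log2-transformed. This offset shrinks differences between dim probes. Probes took symbols from a platform table, updated by Entrez ID through RefSeq (30073 of 30120 listed probes), and the 8 probes with several symbols were left unnamed. Gene positions are those of RefSeq GRCh38.p14. A gene was read at the brightest of its bright probes and set beside the spread of departures in 20 intensity bins. Named were the 12 highest and 12 lowest departures of at least 1 in size, genes past 0.6 at every bright probe, list members past 1 (past 0.6 for the BMP-SMAD, WNT-beta-catenin and Notch lists), and MSX1, HES1, ID1 and BLOC1S1. Other names are of genes picked after their values were seen. Alternatives were 2 other offsets, no background correction, median scaling, the authors' values, 2 other brightness filters, the mean over a gene's bright probes, additivity of linear intensities and 3 other forms of the spread. The steps were tested on simulated data with known departures. Array number limits the precision of every value. No test was run, and the bead-level statistics of the study were not used.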

Additional observations from a re-analysis of the deposited data

Results flagged for a closer look

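At the brightest probe of 5 genes a treatment's difference lay past 0.6 in one direction alone and past 0.6 in the other direction when the second treatment was present. Each such difference compares single arrays, and the contrast between them was not tested. For CHIR99021, BLOC1S1 differed by -0.90 in the presence of BMP4, against 0.78 alone, a departure of -1.68. VPS13A differed by -0.66 in the presence of BMP4, against 0.84 alone, a departure of -1.51. At its further bright probes that difference was 0.04, against 0.31 alone, and -0.01, against 0.35 alone, so neither turned past 0.6. KCNQ1OT1 (-0.64 in the presence of BMP4, against 0.62 alone) departed by -1.27, and NOC2LP2 (-0.63, against 0.61) by -1.24. The second bright probe of NOC2LP2 gave -0.20, against -0.10 alone, a departure of -0.11 with no turn. For BMP4, CREB3 differed by -0.67 in the presence of CHIR99021, against 0.76 alone, a departure of -1.43. In all 5, both single treatments read above untreated cells. No bright gene turned in the opposite way by this size, and FTO came close, with a CHIR99021 difference of 0.60 (just under the limit) in the presence of BMP4, against -0.72 alone.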

How the results depend on the processing

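The counts of genes past 1 depended on how dim signal was treated. Against 26 above and 25 below, an offset of 50 gave 10 and 2, an offset of 1 gave 92 and 111, and no background correction gave 6 and 1. A mean log2 intensity of at least 8 left 8 and 3 among 3772 genes, and adding linear intensities gave 283 and 65. The share of these genes lying above additivity, 51.0%, was thereby 83.3% with the offset of 50, 85.7% without background correction, 72.7% with the intensity limit and 81.3% on the linear scale. Median scaling (28 and 20, 26 and 20 of them shared with the counts reported), the authors' values (27 and 28, 25 and 24 shared), a detection p-value below 0.05 (36 and 35) and the mean over bright probes (19 and 19) stayed within 1.5 times. Further bright probes had the sign of the main one at 9 of 17, at 10 of 17 with the authors' values, at 23 of 43 when dim further probes were let in, and at 121 of 184 for genes past 0.6. Genes past 4 times the spread were 8, and between 5 and 9 with other forms of it. No named gene had its departure reversed. Under the alternatives that could be run for them, MSX1 (1.28 to 2.11), HES1 (1.04 to 2.35), MAP2K2 (1.22 to 2.19) and BLOC1S1 (-1.77 to -1.34) stayed past 1. The other 20 of the 24 highest and lowest fell under 1 in at least 1 of them: 19 without background correction, 16 with the offset of 50 and 6 as a mean over bright probes. Among them were VPS13A (-0.68), CREB3 (-0.67), KAT5 (0.57), FTO (0.87) and, just short of 1, VASP without background correction, and TWSG1 (0.49) as a mean over bright probes. ID1 gave 0.95 with the offset of 50, 0.89 without background correction and 0.12 on the linear scale. KAT5 has no value on the linear scale, where the additive expectation is not positive. Reference and ribosome genes had a median of -0.13 with median scaling and -0.10 with the authors' values, against -0.03. No paired analysis was possible because each group holds 1 array, and for the same reason no array could be left out.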
